A study of Callithrix jacchus with 4 samples.

Results

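Genes of the interleukin-6 cytokine family and its STAT3 pathway were followed in the frontal cortex of adult common marmosets, small monkeys of South America (Callithrix jacchus). They were the rows of the deposited count table with the symbols IL6, LIF, CSF3, IL6R, IL6ST, LIFR, OSMR, STAT3 and SOCS3, 9 of the 35108 genes in the table, and each symbol matched 1 row. They were chosen by symbol for their roles in the pathway, with the counts of these transgenic and wild-type libraries already seen. RNA was sequenced in 4 libraries. The 2 transgenic libraries came from adult females that carried a mutant transgene for APP, the amyloid precursor protein, under the promoter of human EF1α, an elongation factor gene whose promoter is used to drive transgenes in many cell types. The other 2 libraries came from adult wild-type marmosets with no sex given. The labels name neither the mutation nor the age in years and do not say in words that each library was 1 animal, so the spread between libraries may be partly technical.

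Cytokines of the interleukin-6 family signal through the shared receptor subunit gp130, which IL6ST encodes. A ligand brings gp130 together with a partner receptor, Janus kinases bound to the receptors phosphorylate STAT3, and STAT3 enters the nucleus and switches on target genes. SOCS3 is among those targets, and its protein binds gp130 and the kinases and shuts the signal down. In brain, astrocytes, microglia and vascular cells are known to make or answer these cytokines after injury, infection or inflammation.

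The libraries held 13462167 and 18932180 counts in transgenic cortex and 12657323 and 13569838 in wild type. Levels are given in CPM, the usual depth-scaled read count, with library sizes scaled by TMM. Transgenic library 2 stood apart from the other libraries: the chi-square per degree of freedom between gene counts was 37.6 to 48.1 for the pairs that included it and 7.62 to 12.9 for the other pairs. The Y-linked gene KDM5D had 0 counts in both transgenic libraries and 2 and 243 in wild-type libraries 1 and 2, so sex is partly confounded with genotype and cannot be told apart from it. The APP row was at 2139 and 2741 CPM in transgenic cortex and at 1818 and 2178 CPM in wild type. Whether transgene reads were counted on that row was not tested. The values below therefore describe the 9 genes and test nothing new.

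The 3 ligand genes were detected above the counting floor in transgenic library 2 alone. IL6, the cytokine that gives the family its name, had 0 and 320 counts in transgenic libraries 1 and 2 and 0 and 1 in wild-type libraries 1 and 2. In CPM this was 0 and 17.7 in transgenic cortex, against 0 and 0.073 in wild type. Transgenic library 1 was as empty as wild-type library 1, so the groups overlapped, and library 2 stood above the rest.

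CSF3 encodes G-CSF, a growth factor of neutrophils that folds like interleukin-6 and signals through a receptor of its own rather than gp130. It had 0 and 554 counts in transgenic libraries 1 and 2 and 0 in both wild-type libraries. The level in transgenic library 2, 30.6 CPM, was at least 136-fold higher than wild type, with the wild type set to the floor of 3 counts per library. Transgenic library 1 could not be told from wild type at this depth, since a count of 0 there allows up to 0.22 CPM.

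LIF, leukemia inhibitory factor, which acts through LIFR and gp130, had 3 and 157 counts in transgenic libraries 1 and 2 and 1 and 2 in wild type. In transgenic library 2 it stood at 77.0 times the pooled wild-type pair, with a counting interval of 25.9 to 378. In transgenic library 1 the ratio was 1.96 with an interval of 0.26 to 14.6, which includes no difference. For IL6 in transgenic library 2 the ratio rested on 1 wild-type count and was 471, with an interval of 83.9 to 18664. These 95% intervals are exact and cover counting error only, and reads without molecular identifiers are not independent molecules.

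**Figure D1:**
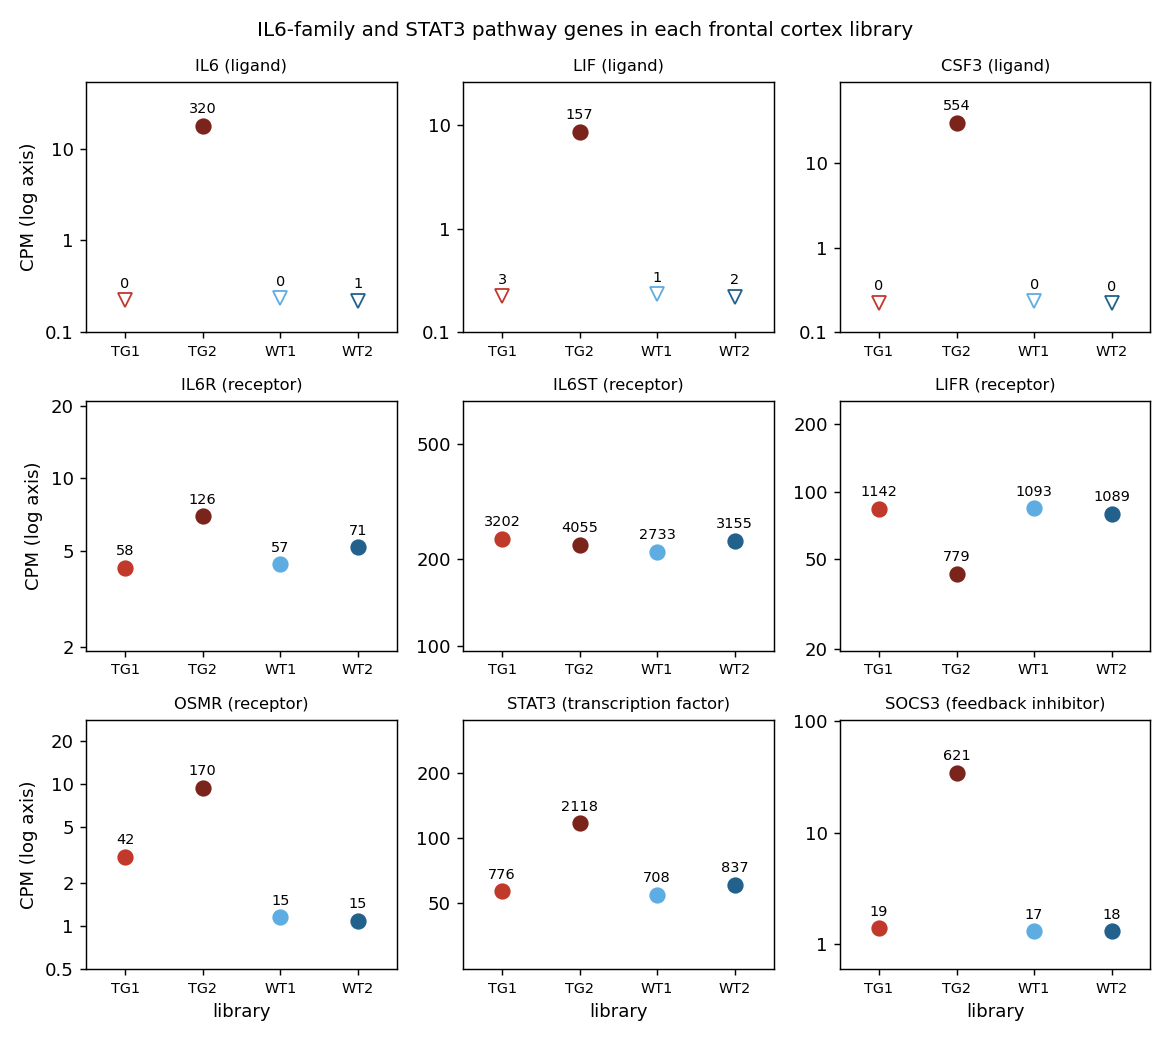
Level of each of the 9 genes in each library, in CPM on a log axis, with the raw count printed above each point. TG1 and TG2 are transgenic libraries 1 and 2, WT1 and WT2 are wild-type libraries 1 and 2, and open triangles mark libraries with 3 counts or fewer, drawn at the level of 3 counts. Transgenic library 2 is high for IL6, LIF, CSF3, OSMR, STAT3 and SOCS3 and low for LIFR, and IL6ST is level.

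The receptor genes differed among themselves. OSMR, the subunit that pairs with gp130 to bind oncostatin M, was at 3.08 and 9.39 CPM in transgenic libraries 1 and 2, from 42 and 170 counts, and at 1.16 and 1.09 CPM in wild type, from 15 counts in each library. Both transgenic libraries lay above both wild-type libraries, as they did for 19.5% of all 16385 genes tested. Against the wild-type pair the ratio was 2.74 in transgenic library 1 (counting interval 1.67 to 4.53) and 8.34 in transgenic library 2 (5.63 to 12.7). Of the members with a ratio in transgenic library 1, OSMR had the highest.

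LIFR, the partner of gp130 in the receptor for LIF, was at 83.8 and 43.0 CPM in transgenic libraries 1 and 2, against 84.4 and 79.5 CPM in wild type. Transgenic library 1 was within the wild-type range, and library 2 was below both wild-type libraries, at 0.53 times the wild-type pair (counting interval 0.48 to 0.57). LIFR was thus low in the library in which its ligand gene LIF was high.

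IL6ST itself, whose product IL6 and LIF both need, was at 235 and 224 CPM in transgenic cortex, against 211 and 230 CPM in wild type. The groups overlapped, and the ratio to the wild-type pair was 1.06 for transgenic library 1 (counting interval 1.02 to 1.11) and 1.01 for library 2 (0.97 to 1.06). The level in library 1 was close to that in wild-type library 2. IL6R, the subunit that binds interleukin-6 and lends cells their specificity for it, was at 4.26 and 6.96 CPM in transgenic cortex and at 4.40 and 5.18 CPM in wild type. Its ratio was 0.89 in transgenic library 1 (counting interval 0.64 to 1.22) and 1.45 in transgenic library 2 (1.12 to 1.87).

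STAT3, the transcription factor that carries the signal, was at 56.9 and 117 CPM in transgenic libraries 1 and 2, from 776 and 2118 counts, and at 54.7 and 61.1 CPM in wild type, from 708 and 837 counts. Transgenic library 1 fell between the wild-type libraries, while transgenic library 2 was at 2.02 times the wild-type pair (counting interval 1.89 to 2.16). SOCS3, the feedback inhibitor, was at 1.39 and 34.3 CPM in transgenic libraries 1 and 2 and at 1.31 CPM in each wild-type library. The counts were 19 and 621 in transgenic cortex and 17 and 18 in wild type. Its ratio was 1.06 in transgenic library 1 (counting interval 0.57 to 1.91) and 26.1 in transgenic library 2 (18.6 to 37.8). The transgenic libraries stood above the wild type for SOCS3 without overlap, but for library 1 the gap was within counting error.

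**Figure D2:**
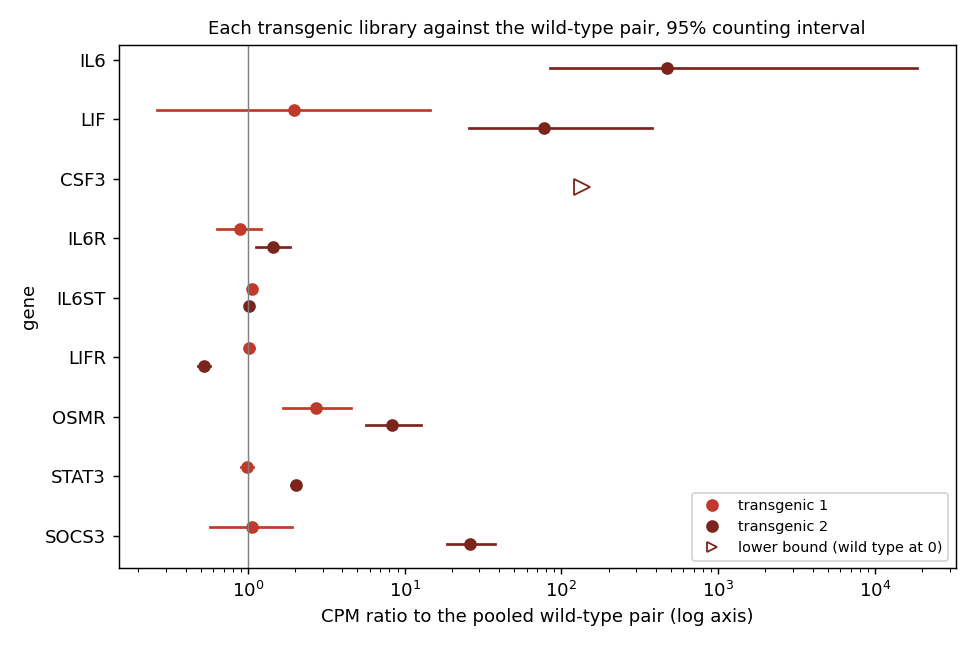
Ratio of the CPM of each transgenic library to the pooled wild-type pair for the 9 genes, on a log axis, with 95% counting intervals as lines. The open triangle is the lower bound of 136 for CSF3 in transgenic library 2, and IL6 and CSF3 have no point for transgenic library 1, where they had 0 counts. In transgenic library 1 OSMR has the highest ratio, 2.74, with an interval of 1.67 to 4.53.

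Over the 2 libraries per group, edgeR's quasi-likelihood test called none of the members at an adjusted p of 0.05. It called 0% of the 16385 genes tested, and 921 genes had an unadjusted p under 0.05. Of the 9 members 6 passed the filter on low counts, which asks for about 10 counts in at least 2 libraries. IL6, LIF and CSF3 did not pass it, because 1 library alone held more than 3 counts. The adjusted p of the 6 members lay between 0.79 and 0.91, and 2 of them, OSMR and SOCS3, had an unadjusted p under 0.05. For SOCS3 that p was 0.042, against 0.26 in limma-voom, where the log2 fold change was 2.60, and 0.08 with the replicate number as a block, where it was 2.66. DESeq2 called none of the 6 and 0.293% of all genes. With no filter edgeR called none of the 9 and 0.0185% of 27054 genes, and the 3 ligand genes had an adjusted p of 0.64 to 0.68.

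The fitted log2 fold change, transgenic over wild type, was 3.76 ± 1.41 (SE, n = 2 per group) for SOCS3 and 2.47 ± 0.62 for OSMR. It was 0.59 ± 0.34 for STAT3 and 0.23 ± 0.35 for IL6R. For IL6ST it was 0.06 ± 0.12, and for LIFR -0.37 ± 0.32. The differences for STAT3, IL6R, IL6ST and LIFR were smaller than 2 times their SE. Of the 6 members, 5 were higher in sign and the median log2 fold change was 0.41, beside -0.0022 over all genes tested.

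Transgenic library 2 decided most of these values. Without it the log2 fold change was 0.08 for SOCS3, -0.03 for STAT3, 0.03 for LIFR and -0.18 for IL6R, while OSMR kept 1.44 ± 0.50 (adjusted p = 0.96 in edgeR). That fit called 0.0175% of 17127 genes and no member. Without transgenic library 1, which leaves library 2 against the wild-type pair and takes the spread from that pair, edgeR called 7 of the 9 members, 6 higher and 1 lower. The same fit called 4.52% of 17234 genes as higher and 5.4% as lower. The 6 higher members were IL6, LIF, CSF3, OSMR, STAT3 and SOCS3, and the lower one was LIFR. IL6, LIF and CSF3 entered this fit through the high counts of library 2 alone, so they had to differ there, and their calls add nothing to their counts. There SOCS3 had a log2 fold change of 4.70, OSMR 3.05, STAT3 1.01 and LIFR -0.93, and IL6ST stood at 0.02 and IL6R at 0.54. This contrast describes 1 library and not the genotype.

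The members were also set against the whole table by a rule of size. Transgenic library 2 was at least 2 times as high as each of the other 3 libraries, with the floor of 3 counts applied, in 5 of the 9 members: IL6, LIF, CSF3, OSMR and SOCS3. Over 20216 genes with at least 10 counts in all it was so in 2.95%. The corresponding share was 0.752% for transgenic library 1, 1.77% for wild-type library 1 and 0.836% for wild-type library 2, and no member met the rule in those libraries. At 4 times, transgenic library 2 met it in IL6, LIF, CSF3 and SOCS3, against 0.955% of genes, and the other libraries met it in no member and in 0.0247% (transgenic library 1), 0.143% (wild-type library 1) and 0.178% (wild-type library 2) of genes. STAT3 lay just outside the 2-fold rule, with 117 CPM in transgenic library 2 and 61.1 CPM in the next library. IL6, LIF and CSF3 reached 10 counts in all only through transgenic library 2, so no other library could meet the rule for them. OSMR and SOCS3 had more than 10 counts in every library. The members were chosen with these counts seen, so their share beside that of all genes is a description and no test.

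The other ligand genes of the family were mostly near the floor. Of 8, 4 passed the filter, and edgeR called 0 as higher and 0 as lower. OSM, which encodes oncostatin M, the ligand of OSMR, had 0 and 2 counts in transgenic libraries 1 and 2 and 0 in both wild-type libraries. No rise above the floor of 3 counts was seen in either transgenic library. CNTF, the ciliary neurotrophic factor, was at 3.45 and 4.53 CPM in transgenic cortex and at 4.86 and 3.72 CPM in wild type, with overlap. IL27, which encodes a subunit of interleukin-27, a cytokine that also uses gp130, was picked out after its values were seen. It had 0 and 31 counts in transgenic libraries 1 and 2 and 0 in wild type, at least 7.61-fold higher in transgenic library 2 with the wild type at the floor of 3 counts per library.

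Of 5 other receptor genes 4 passed the filter, and 0 were called in either direction. IL11RA, the receptor for interleukin-11, was at 6.68 and 2.49 CPM in transgenic cortex and at 5.17 and 5.91 CPM in wild type. CNTFR, the receptor for CNTF, was at 36.8 and 28.9 CPM in transgenic cortex and at 52.2 and 35.8 CPM in wild type. For CNTFR and IL11RA the groups overlapped. The median log2 fold change was -0.35 for the 4 receptors and -0.16 for the 4 ligands, but it was 0.01 for the receptors without wild-type library 2 and turned positive for the ligands in 3 of the 4 fits that left out a library.

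All 10 genes for Janus kinases and other STAT proteins passed the filter, and 0 were called. JAK1, a kinase that works with gp130, was at 105 and 104 CPM in transgenic cortex and at 105 and 110 CPM in wild type. JAK2 was at 28.8 and 32.9 CPM in transgenic cortex and at 28.4 and 24.0 CPM in wild type. JAK1 was just below the wild-type range in both transgenic libraries, and JAK2 was above it in both. Of the 10 genes 2 lay below in this way and 2 above, beside 19.4% and 19.5% of all genes tested. The median log2 fold change of the 10 genes was 0.13, and -0.06 without transgenic library 2.

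Of 12 other inhibitors 10 passed the filter and 0 were called, with 8 higher in sign and a median log2 fold change of 0.23. SOCS1, a sister of SOCS3 that blocks Janus kinases, had 5 and 32 counts in transgenic libraries 1 and 2 and 2 and 4 in wild type. CISH, another member of the SOCS family, had 2 and 7 counts in transgenic cortex and 3 and 1 in wild type. PIAS3, which inhibits DNA binding by STAT3, was at 31.5 and 33.6 CPM in transgenic cortex and at 24.2 and 27.9 CPM in wild type. PTPN11, the phosphatase SHP2 that docks to gp130 at the site SOCS3 uses, was at 438 and 461 CPM in transgenic cortex and at 402 and 385 CPM in wild type. For PIAS3 and PTPN11 both transgenic libraries were above both wild-type libraries. Of the 10 inhibitors that passed the filter 6 lay above in this way and 1 below, beside 19.5% and 19.4% of all genes tested.

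Genes known to be induced through STAT3 in other tissues or in reactive astrocytes formed the longest list. Of 31 entries 30 matched a row, 21 passed the filter, and edgeR called 0 as higher and 0 as lower. In sign 17 of the 21 were higher, with a median log2 fold change of 0.56, which was 0.11 without transgenic library 2 and 0.87 without wild-type library 2. Of the 25 with at least 10 counts in all, 8 were in transgenic library 2 at least 2 times as high as in each other library. Among them were CEBPD, BCL3, LCN2, CHI3L1 and MYC. Over all genes with at least 10 counts the share was 2.95%. LCN2 and LBP, the latter picked out after its values were seen, reached 10 counts only through library 2. No other library could meet the rule for them. CEBPD, a transcription factor of the acute-phase response, was at 5.28 and 22.3 CPM in transgenic libraries 1 and 2 and at 3.32 and 3.28 CPM in wild type. BCL3, a partner of NF-κB, was at 3.08 and 7.07 CPM in transgenic cortex and at 2.47 and 2.85 CPM in wild type. For CEBPD and BCL3 both transgenic libraries were above both wild-type libraries, as they were for 6 of the 21 and for 19.5% of all genes tested. In transgenic library 1 the ratio to the wild-type pair was 1.60 for CEBPD (counting interval 1.16 to 2.21). For BCL3 it was 1.16 (0.77 to 1.72), which includes no difference.

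LCN2, which encodes the siderophore-binding protein lipocalin 2 that reactive astrocytes and neutrophils make, had 4 and 211 counts in transgenic libraries 1 and 2 and 1 and 4 in wild type. CHI3L1, a secreted glycoprotein of reactive astrocytes, was at 1.03 and 20.4 CPM in transgenic cortex and at 1.08 and 3.43 CPM in wild type. MYC, a growth regulator, was at 2.86 and 11.7 CPM in transgenic cortex and at 2.63 and 2.99 CPM in wild type. The kinase gene PIM1 was at 8.44 and 18.9 CPM in transgenic cortex and at 11.1 and 9.27 CPM in wild type. For CHI3L1, MYC and PIM1, transgenic library 1 was within or below the wild-type range and library 2 above it.

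The remaining genes named from the list were astrocyte, matrix and activity genes. GFAP, which encodes the main filament protein of astrocytes, was at 756 and 633 CPM in transgenic cortex and at 694 and 516 CPM in wild type. VIM, another intermediate filament, was at 87.4 and 108 CPM in transgenic cortex and at 40.4 and 88.0 CPM in wild type. TIMP1, a metalloproteinase inhibitor, was at 11.3 and 16.8 CPM in transgenic cortex and at 9.03 and 20.2 CPM in wild type. JUNB, a transcription factor that neuronal activity also induces, was at 93.6 and 61.7 CPM in transgenic cortex and at 27.5 and 75.0 CPM in wild type. For each of these 4 genes the groups overlapped, and of them only VIM had library 2 above both wild-type libraries with library 1 within their range. SERPINA3 was matched to no row and is not analysed here.

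**Figure D3:**
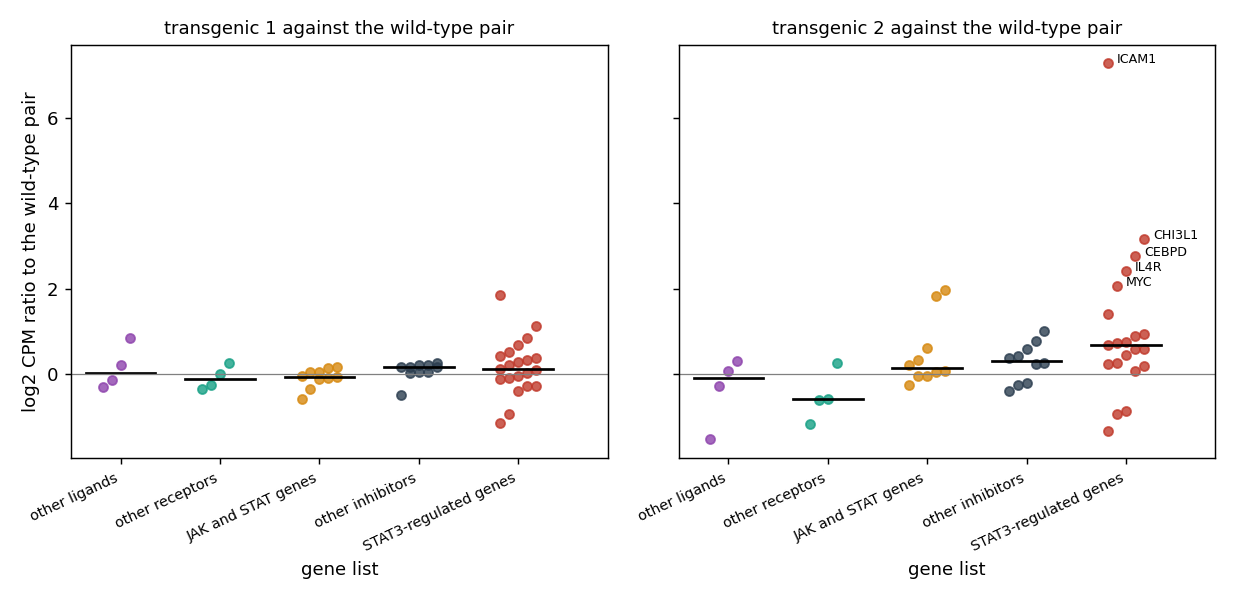
Log2 ratio of CPM to the pooled wild-type pair for the pathway genes that passed the filter, by list, in transgenic library 1 (left) and transgenic library 2 (right). Each point is a gene, black bars are list medians, and genes at a log2 ratio of 2 or more are named. The genes of the list labelled STAT3-regulated spread up to 7.28, at ICAM1, in transgenic library 2 and up to 1.85 in transgenic library 1. Whether STAT3 regulated them in these samples was not tested.

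Over all 66 pathway genes beside the 9, 49 passed the filter and none was called in edgeR or DESeq2, where 4 had an unadjusted p under 0.05 by each tool. A fit without transgenic library 1 again describes library 2. IL27 and LCN2 entered it through their counts in library 2 alone, so their differences there add nothing to those counts. Among 57 pathway genes with at least 10 counts in all, 13 were in transgenic library 2 at least 2 times as high as in each other library, beside the 2.95% of all genes given above. In transgenic library 1 it was 1, the activity-induced gene FOS, at 100.4 and 38.2 CPM in transgenic libraries 1 and 2 and at 10.2 and 44.7 CPM in wild type. Of the 13, IL27, EBI3, LCN2 and LBP reached 10 counts in all only through transgenic library 2, so no other library could meet the rule for them. EBI3, FOS, ICAM1 and IL4R were picked out after their values were seen. ICAM1, the adhesion molecule that leukocytes bind on activated endothelium, was the highest of the 13 by ratio among genes that passed the filter, with 1.32 and 93.1 CPM in transgenic libraries 1 and 2 and 0.69 and 0.51 CPM in wild type. IL4R, a cytokine receptor subunit, was at 5.87 and 60.0 CPM in transgenic cortex and at 12.1 and 10.4 CPM in wild type.

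The genes most like OSMR, SOCS3 and STAT3 across the 4 libraries were found by the distance between log2 CPM profiles, each centred on its own mean, among 13015 genes. This is a description over 4 libraries. Nearest to OSMR was CD44, the hyaluronan receptor of reactive astrocytes and leukocytes, at 4.62 and 17.2 CPM in transgenic cortex and 2.24 and 2.19 CPM in wild type (distance 0.28, where the median gene had 2.42). MEDAG followed at 0.34 and FYB2 at 0.47, and both were intermediate in transgenic library 1 and highest in library 2.

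Nearest to SOCS3 were MAFF, a small MAF transcription factor (distance 0.41), IRF1, an interferon regulatory factor (0.43), and SELE, the endothelial adhesion molecule E-selectin (0.53), where the median gene had 3.94. IRF1 was at 3.45 and 111 CPM in transgenic libraries 1 and 2 and at 3.09 and 3.21 CPM in wild type. SELE was at 2.05 and 55.9 CPM in transgenic cortex and at 2.63 and 1.53 CPM in wild type. Nearest to STAT3 were XAF1 (distance 0.05), AEN (0.09) and PMF1 (0.12), where the median gene had 0.94. XAF1, an interferon-induced gene, was at 5.65 and 12.2 CPM in transgenic cortex and at 5.56 and 6.06 CPM in wild type.

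Cell type markers also moved with transgenic library 2, and in bulk tissue fewer cells of a type and less RNA per cell cannot be told apart. Each list had 10 genes, and their summed CPM is given. Neuron markers, the check of the cortex label, were at 12229 and 14416 in transgenic cortex and at 12511 and 13204 in wild type. Astrocyte markers were at 9805 and 3267 in transgenic libraries 1 and 2 and at 10994 and 9307 in wild type. Oligodendrocyte markers were at 3295 and 1199 in transgenic cortex and at 3326 and 2634 in wild type. So the library with high IL6, CSF3, LIF and SOCS3 was also the one low in astrocyte and oligodendrocyte markers.

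The microglia sum was lower in both transgenic libraries, at 134 and 106, than in wild type, at 214 and 249. So was the endothelial sum, at 184 and 151 against 268 and 234. In each list 6 of the 10 genes lay below wild type in both transgenic libraries, beside 19.4% of all genes tested, and the rest overlapped. The endothelial genes CDH5, ERG and TIE1 were higher in transgenic library 2 than in either wild-type library, at 21.8, 15.3 and 9.45 CPM. In wild type CDH5 was at 11.9 and 13.1 CPM, ERG at 7.72 and 6.50 CPM and TIE1 at 8.65 and 8.32 CPM. KDR was at 29.6 and 2.98 CPM in transgenic libraries 1 and 2 and at 11.6 and 27.8 CPM in wild type. Mural cell and fibroblast markers were at 353 and 247 in transgenic cortex and at 240 and 306 in wild type. Blood leukocyte markers summed to 7.78 and 261 in transgenic libraries 1 and 2 and to 9.73 and 14.1 in wild type. In transgenic library 2 that sum came mainly from S100A9 at 205, S100A8 at 32.3 and S100A12 at 13.3 CPM, genes of neutrophils and monocytes. Of the lymphocyte markers of the list, CD3E, CD3D and MS4A1 had 0 counts in transgenic library 2 and CD79A had 3, while CD2 was at 2.05 and 6.57 CPM in transgenic cortex and at 3.09 and 4.82 CPM in wild type. The monocyte marker FCN1 had 1 count there. CSF3R, the receptor for the CSF3 product and a neutrophil gene, was at 5.14 and 4.36 CPM in transgenic cortex and at 4.17 and 8.69 CPM in wild type. The part of these markers in the values of the 9 genes was not tested.

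**Figure D4:**
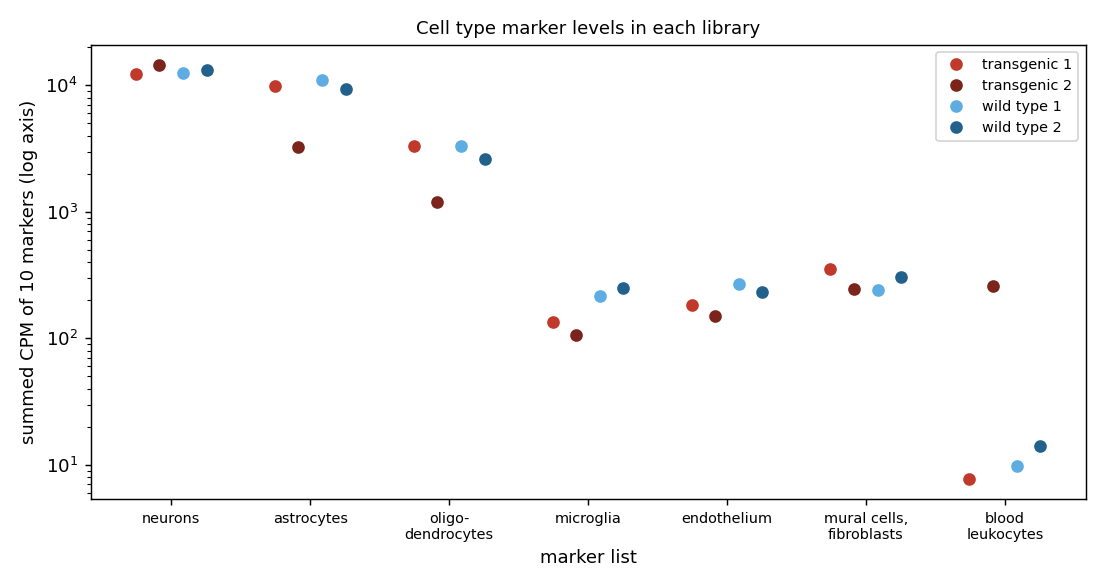
Summed CPM of 10 markers for each cell type, on a log axis, in each library. In transgenic library 2 the astrocyte sum is 3267 and the oligodendrocyte sum 1199, below the other libraries, and the leukocyte sum is 261, above them.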

How the data were processed

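The authors deposited raw counts of reads for each gene symbol in 4 columns, 1 for each library. Tools named in the submitters' processing notes, with no role given, are kallisto 0.46.2, STAR 2.5.3a and featureCounts 1.5.2. Per the labels' protocols, total RNA was purified with an RNeasy Mini kit and KAPA Hyper reagents were used for the libraries. Build, annotation and strandedness: not given in the sources used here. Reads of overlapping genes therefore cannot be told apart. In the RefSeq annotation of calJac240_pri, possibly another build than the authors', genes of the LOC form overlap IL6, IL6R, LIFR and OSMR, and those with a row had at most 33 counts in a library.

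Counts were analysed in R 4.3.3. The test was edgeR 4.0.16 (filterByExpr, TMM, quasi-likelihood F-test, genotype as the only term, 2 residual degrees of freedom) over 16385 genes, with Benjamini-Hochberg adjustment over all of them and a threshold of 0.05. The SE is the fitted log2 fold change divided by the square root of F. CPM uses total counts times the TMM factor. A count of 3 is 0.17 to 0.23 CPM. With 2 against 2 libraries the smallest two-sided p of an exact permutation test is 0.33, and none was run. The steps were tested on simulated data. Alternatives were DESeq2 1.42.0, limma-voom (limma 3.58.1), other scaling, other filters, a replicate block and leaving out each library, where a lone sample was assumed to vary like the other group.

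The members and lists were chosen with earlier results of these data known. The genes named were the 9 members, APP, 22 pathway genes fixed by name, and the 3 genes nearest in pattern to OSMR, SOCS3 and STAT3 with a mean count of at least 20 and a symbol. KDM5D and single genes of the marker lists were named after their values were seen, and other pathway genes outside the rule are marked so in the text. The result of 1 gene that the rule named is not reported here.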

Additional observations from a re-analysis of the deposited data

How the results depend on the processing

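The count of genes called was 0 in edgeR, 48 in DESeq2 and 5 with no filter on low counts, and 0 with limma-voom, RLE scaling, library totals without scaling and a mean count of at least 50. Leaving out a library gave 0 to 1710 genes, 0 to 7 members and 0 to 14 pathway genes, the highest in each case without transgenic library 1. That fit tested 17234 genes, 9 members and 53 pathway genes, and it describes 1 library and not the genotype. IL6, LIF and CSF3 among the members and IL27 and LCN2 among the pathway genes entered it through transgenic library 2 alone. Their calls add nothing to their counts. Without transgenic library 2 the count called was 3 genes, 0 members and 0 pathway genes. Leaving out a library turned the sign of the log2 fold change for IL6R (-0.18 to 0.54), IL6ST (-0.011 to 0.12), LIFR (-0.93 to 0.028) and STAT3 (-0.028 to 1.01), where STAT3, LIFR and IL6R turned without transgenic library 2 and IL6ST without wild-type library 1. The cause was not tested. It ranged from 1.44 to 3.05 for OSMR and from 0.08 to 4.70 for SOCS3. No scaling, filter or tool turned the sign of a member. The median of the 4 ligand genes was 0.25 with no filter, over 8 genes.

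With the replicate number as a block edgeR called 0 genes, 0 members and 0 pathway genes. Same-numbered libraries had a correlation of deviations of -0.14. With 2 libraries per group, crossing the numbers only turns its sign, so it cannot decide whether the numbers pair the libraries. With the numbers crossed, a setting chosen after seeing the data, edgeR again called 0 genes. With 3 counts as the floor, IL6, LIF and CSF3 could not be measured below about 0.2 CPM, and 2 libraries per group limit every comparison.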
